A study of Mus musculus with 6 samples.

Results

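The genes described here are 10 genes of the epithelial surface and of epithelial secretion: *Aqp4*, *Muc4*, *Muc1*, *Clu*, *Cftr*, *Epcam*, *Prom1*, *Spint1*, *Spint2* and *St14*. They were picked by name, because an earlier look at the same 6 libraries had shown lower values in mutant than in control lungs, and they are 10 of the 23420 genes listed. All 10 were among the 17168 genes that passed the filter on low values, which asked for a value of 1 or more in 3 or more of the libraries. Since the choice used the difference between mutant and control, that difference is given for these genes as a description without a test. No cutoff was part of the choice. *Epcam* and *Aqp4* are known mainly from the lateral and basal sides of epithelial cells, so the word apical does not cover every gene of the set.

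RNA was extracted from whole mouse lungs at E11.5, when the lung is a small branching epithelial tree inside mesenchyme. The control lungs were *Raptor* f/+; *Shh* Cre/+ and the mutant lungs were *Raptor* f/f; *Shh* Cre/+ (*Raptor* is *Rptor*), and each group had 3 libraries, each a pool of 3 or 4 lungs of 1 genotype. The Cre, driven by the *Shh* locus, acts in lung epithelial cells and inactivates floxed *Rptor* in them. Both groups therefore carried Cre at the *Shh* locus and a floxed *Rptor* allele, and control epithelium kept 1 intact copy. RAPTOR is the scaffold protein of the kinase complex mTORC1, and the comparison asks how RNA levels differ when the epithelium lacks it. The deposited values are normalized counts, that is, the reads of a gene after each library was divided by its own size factor, and they summed to between 20705058 and 20865998 per library. *Rptor* itself, counted over the whole gene in whole lungs, had 2199 ± 77.0 normalized counts (SD, n = 3 pools) in control and 2103 ± 69.1 (SD, n = 3) in mutant lungs, with overlapping groups (limma with Benjamini-Hochberg adjustment, adjusted p = 0.584).

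The surface of an epithelial tube is divided into an apical face toward the lumen and a lateral and basal face toward neighbouring cells and the matrix. Membrane mucins form a brush of sugar-coated protein on the apical face, ion channels and aquaporins move salt and water across the cell layer, and fluid held in the lumen keeps the fetal lung distended. The serine protease matriptase (*St14*) works at the same surface and is held in check by a pair of Kunitz-type inhibitors, HAI-1 (*Spint1*) and HAI-2 (*Spint2*).

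Upstream sequences were read from RefSeq promoter windows of GRCm38.p6, each covering 250 bases before and 50 bases after an annotated start. There were 8 windows for 7 of the 10 genes (*Prom1* has 2) among 32851 windows in all. No entry was found for *Aqp4*, *Clu* and *St14*. The 250 bases before the start are printed for 4 genes: the mucins, which share a protein class but differed in the size of their difference, and the Kunitz inhibitors, which share a protease target but also differed. They are written 5′ to 3′ on the strand of the gene in lower case, and capitals mark 4 motifs. These are TATAAA (the TATA box), the GC box GGGCGG, which reads CCGCCC where it lies on the other strand, the motif CCGGAAG bound by ETS factors, and the core AACNNGTT of the motif of Grainyhead-like factors. The positions are chr16:32735636-32735885 (plus strand) for *Muc4*, chr3:89228806-89229055 (plus strand) for *Muc1*, chr2:119237110-119237359 (plus strand) for *Spint1* and chr7:29281978-29282227 (minus strand) for *Spint2*.
Muc4: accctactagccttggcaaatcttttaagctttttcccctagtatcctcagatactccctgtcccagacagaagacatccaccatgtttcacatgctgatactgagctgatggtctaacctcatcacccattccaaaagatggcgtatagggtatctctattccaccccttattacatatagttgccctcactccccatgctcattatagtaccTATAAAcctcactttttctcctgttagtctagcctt
Muc1: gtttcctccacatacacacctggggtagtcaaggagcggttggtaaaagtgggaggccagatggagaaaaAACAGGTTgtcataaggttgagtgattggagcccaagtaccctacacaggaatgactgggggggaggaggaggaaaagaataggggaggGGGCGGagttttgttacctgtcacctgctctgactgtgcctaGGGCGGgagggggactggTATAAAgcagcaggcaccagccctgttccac
Spint1: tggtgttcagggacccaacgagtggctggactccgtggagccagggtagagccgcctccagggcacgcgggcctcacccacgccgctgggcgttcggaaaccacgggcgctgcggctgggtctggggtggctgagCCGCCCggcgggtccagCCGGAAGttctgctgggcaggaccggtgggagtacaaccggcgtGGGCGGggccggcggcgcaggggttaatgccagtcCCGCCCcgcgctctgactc
Spint2: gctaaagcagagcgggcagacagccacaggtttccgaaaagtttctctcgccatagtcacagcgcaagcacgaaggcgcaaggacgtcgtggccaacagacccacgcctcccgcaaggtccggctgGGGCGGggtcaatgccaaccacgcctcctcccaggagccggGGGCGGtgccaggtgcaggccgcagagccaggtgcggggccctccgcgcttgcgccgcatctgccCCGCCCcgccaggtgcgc

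Both mucin windows held TATAAA, 36 bases before the start in *Muc4* and 31 bases before it in *Muc1*, against 13.6% of all windows on either strand. The windows of the inhibitors held none. The GC box GGGCGG, on either strand, was present in 6 of the 8 windows (35.7% of all windows), with 6 copies in *Cftr*, 3 each in *Spint1* and *Spint2*, 2 in *Muc1*, and 1 each in *Epcam* and the first *Prom1* window. The *Muc4* window had none. AACNNGTT was found in *Muc1*, 180 bases before the start, and in both *Prom1* windows, against 4.204% of all windows. Its stricter form AACCGGTT, which is contained in AACNNGTT, was in none of the 8 and in 0.146% of all windows. CCGGAAG lay 98 bases before the start of *Spint1* and in no other of these windows (8.86% of all), and the forkhead-type motif TGTTTAC was in none (3.65% of all). GC content ran from 43.7% in *Muc4* and 55.7% in *Muc1* to 69.3% in *Spint2*, 69.7% in *Spint1* and 71.3% in *Cftr*, against a median of 52.7% over all windows. A match of letters is a description of the sequence and not evidence of a bound site.

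All 10 genes had a lower mean in mutant than in control lungs in the deposited values. Once libraries were scaled to 17 other epithelial genes, *Cftr*, *Epcam*, *Prom1* and *Spint2* had a higher mean in mutant lungs. Except for *Spint2* the groups then overlapped. This scaling raises all mutant values relative to control, as described further on. In the deposited values the difference was largest for *Aqp4* and *Muc4*, intermediate for *Clu*, *Spint1*, *Muc1* and *St14*, and small for *Cftr*, *Epcam*, *Spint2* and *Prom1*. In 7 genes every mutant pool lay below every control pool, while the groups overlapped in *Cftr*, *Epcam* and *Prom1*. For comparison, 10.5% of the 17168 tested genes had every mutant pool below every control pool. The limma fit over all tested genes, with Benjamini-Hochberg adjustment at 0.05, called 4 of the 10 lower (*Aqp4*, *Muc4*, *Clu* and *Spint1*), beside 0.315% of all tested genes called lower and 0.501% called in either direction, and nothing is read from that count because the genes were chosen on this contrast. The median log2 difference over the 10 genes was -0.50, against -0.00 over all tested genes, of which 50.5% were lower. In whole lungs, fewer epithelial cells and less RNA per epithelial cell cannot be told apart.

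**Figure D1:**
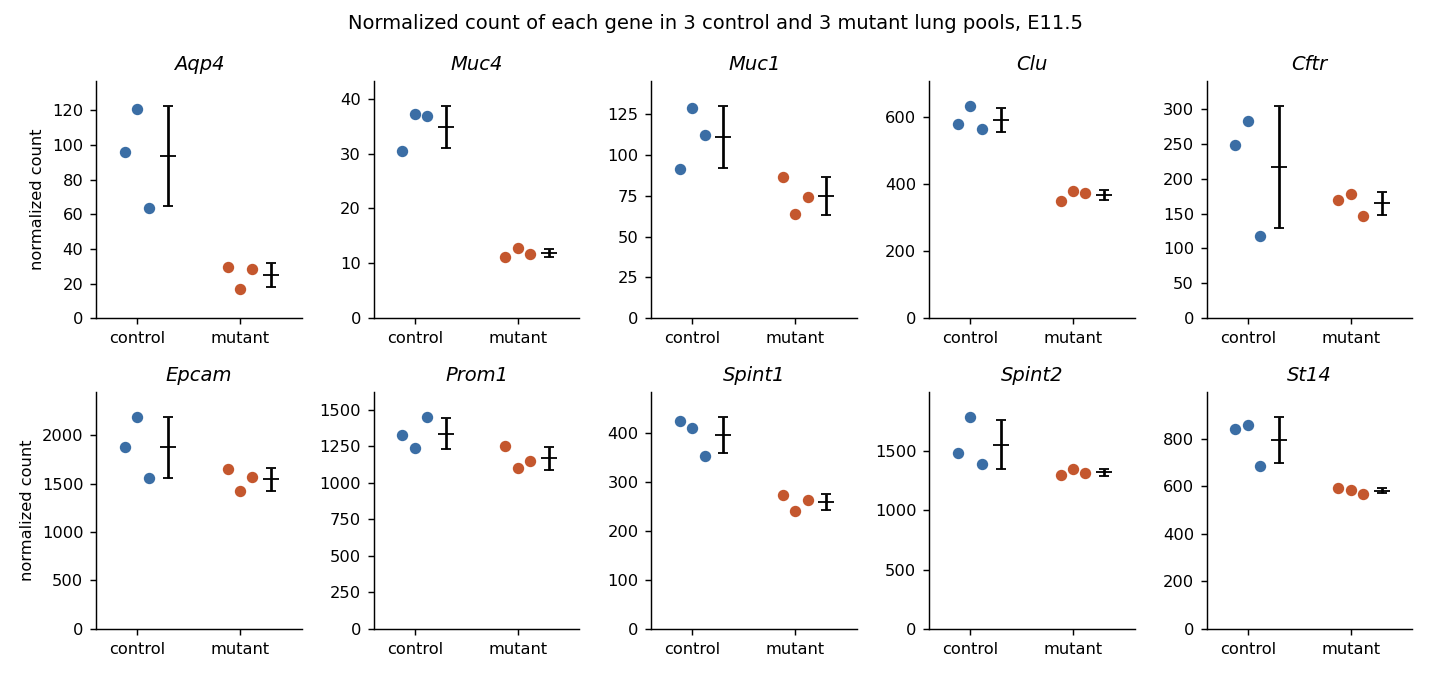
Normalized count (y axis, linear from 0) of each of the 10 genes in 3 control and 3 mutant lung pools at E11.5. Points are pools and bars are the mean ± SD. On this scale the mutant points lie below all control points in 7 panels and overlap with them for *Cftr*, *Epcam* and *Prom1*. Scaling to other epithelial genes, which raises all mutant values relative to control, turns the means of *Cftr*, *Epcam*, *Prom1* and *Spint2* higher, with overlap except for *Spint2*.

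*Aqp4* encodes a water channel of the aquaporin family and lies on chromosome 18 of GRCm38 from 15389496 to 15410982 on the minus strand. Control pools 1, 2 and 3 had 96.3, 121 and 63.6 normalized counts, and mutant pools 1, 2 and 3 had 29.6, 16.7 and 28.5. Even the lowest control pool was 2.15 times the highest mutant pool. The means were 93.6 ± 28.7 (SD, n = 3) and 24.9 ± 7.17 (SD, n = 3), which is 73.4% lower, with a log2 difference of -1.86 (SE 0.29) on the scale of log2(normalized count + 1). That was the largest difference of the 10 genes. Leaving out 1 pool at a time moved it between -2.11 and -1.61.

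*Muc4* and *Muc1* encode membrane-bound mucins. *Muc4*, on chromosome 16 from 32735886 to 32782391 on the plus strand, had 30.4, 37.2 and 36.8 normalized counts in control pools 1, 2 and 3 and 11.2, 12.7 and 11.8 in the mutant pools. The 6 values fell into separate groups with a small spread in each, and the lowest control pool was 2.39 times the highest mutant pool. The means were 34.8 ± 3.78 (SD, n = 3) and 11.9 ± 0.763 (SD, n = 3), a log2 difference of -1.47 (SE 0.24). It is a gene of few reads in these lungs, and 1 read was worth 0.980 to 1.03 normalized counts in the 5 libraries whose values were turned back into reads. *Muc4* shares 627 bases of exon with *Muc20* on the opposite strand, which was at 0, 0 and 1.99 normalized counts in control and 0, 0 and 1.96 in mutant pools. Whether the counting used strand is not given in the sources used here, so reads over shared bases cannot be told apart, which also holds for the antisense genes named below.

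For *Muc1*, on chromosome 3 from 89229057 to 89233381, the control pools had 91.3, 129 and 112 normalized counts and the mutant pools 86.8, 63.7 and 74.6. The groups did not overlap, but control pool 1 was close to mutant pool 1. The means were 111 ± 18.9 and 75.1 ± 11.6 (SD, n = 3 each), a log2 difference of -0.55 (SE 0.18). Within the same pools, the log2 ratio of *Muc4* to *Muc1* was lower by 0.91 in mutant lungs, from a mean of -1.64 ± 0.12 (SD, n = 3) to -2.55 ± 0.30 (SD, n = 3), without overlap. The smaller of the mucin differences was in the mucin with the higher level per length.

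*Clu* encodes clusterin, a secreted chaperone that binds misfolded proteins outside the cell, and lies on chromosome 14 from 65968483 to 65981547 on the plus strand. Its normalized counts were 578, 630.2 and 563 in the control pools and 348, 377 and 374 in the mutant pools. Both groups were tight and well apart, with means of 590.1 ± 35.5 and 367 ± 15.9 (SD, n = 3 each) and a log2 difference of -0.68 (SE 0.07). Leaving out any 1 pool gave differences from -0.72 to -0.64.

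*Cftr*, the apical chloride channel whose loss causes cystic fibrosis, lies on chromosome 6 from 18170687 to 18322768 on the plus strand. Control pools 1, 2 and 3 had 249, 283 and 118 normalized counts, and the mutant pools had 169.6, 178 and 146. Control pool 3 was the lowest of all 6 pools and the other control pools were the highest, so the groups overlapped. The means were 217 ± 86.9 and 165 ± 16.6 (SD, n = 3 each), a log2 difference of -0.30 (SE 0.27). Without control pool 3 the difference was -0.69, and without control pool 2 it was -0.06, so its size rested on single control pools. *Cftr* shares 129 bases of exon with an antisense gene, *Gm15592*.

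*Epcam* encodes an adhesion protein of epithelial cell contacts and lies on chromosome 17 from 87635979 to 87651129 on the plus strand. It had 1880.0, 2184 and 1559.5 normalized counts in the control pools and 1652, 1419.7 and 1564 in the mutant pools. Control pool 3 lay below 2 of the mutant pools. The means were 1874 ± 312 and 1545 ± 117 (SD, n = 3 each), a log2 difference of -0.27 (SE 0.11) that became -0.15 without control pool 2 and -0.39 without control pool 3.

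*Prom1* encodes prominin-1 (CD133), a cholesterol-binding protein of microvilli and other membrane protrusions, and lies on chromosome 5 from 43993620 to 44102032 on the minus strand. Normalized counts were 1326, 1237 and 1449 in the control pools and 1251, 1100.1 and 1149 in the mutant pools. Mutant pool 1 lay above control pool 2. With means of 1337 ± 107 and 1167 ± 76.8 (SD, n = 3 each), the log2 difference of -0.20 (SE 0.07) was the smallest of the 10. *Prom1* shares 424 bases of exon with an antisense gene, *Gm16401*.

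*St14* encodes matriptase, a transmembrane serine protease that cuts precursor proteins at the epithelial surface, and lies on chromosome 9 from 31089402 to 31131853 on the minus strand. The control pools had 841, 859.5 and 685 normalized counts and the mutant pools 592, 586 and 568. The mutant pools were nearly alike, and the control pools were all higher, with control pool 3 nearest to them. The means were 795 ± 95.9 and 582 ± 12.2 (SD, n = 3 each), a log2 difference of -0.44 (SE 0.09).

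*Spint1*, encoding the inhibitor HAI-1, lies on chromosome 2 from 119237362 to 119249527 on the plus strand. It had 423, 409 and 354 normalized counts in the control pools and 274, 240.2 and 263 in the mutant pools. The lowest control pool stood clearly above the highest mutant pool, and the means were 395 ± 36.7 and 259 ± 17.2 (SD, n = 3 each), a log2 difference of -0.61 (SE 0.09). *Spint2*, encoding HAI-2, lies on chromosome 7 from 29256323 to 29281912 on the minus strand and had 1485, 1784 and 1389.6 normalized counts in the controls, against 1295, 1348 and 1315 in the mutants. The groups were separate by little, since the lowest control pool was 1.03 times the highest mutant pool. Its means were 1553 ± 206 and 1319 ± 27.0 (SD, n = 3 each), a log2 difference of -0.23 (SE 0.08) that became -0.12 without control pool 2.

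Set against each other within each pool, the protease and its inhibitors differed in unequal amounts. The log2 ratio of *Spint1* to *Spint2* was lower by 0.38 in mutant than in control lungs, and the ratio per length went from 0.422 to 0.324, with no overlap between pools. The log2 ratio of *Spint1* to *St14* was -0.16 apart (mutant minus control; per length 1.38 and 1.23), and that of *Spint2* to *St14* was 0.21 apart in the other direction (3.28 and 3.80 per length), both without overlap. In mutant lungs there was therefore less *Spint1* RNA and more *Spint2* RNA per *St14* RNA than in control lungs. These ratios do not depend on how a library is scaled. They use the same counts on which the genes were chosen, and no test is given.

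Levels can be compared between genes only per length, and here the normalized count was divided by the length of the union of exons in kilobases. In control lungs the order from high to low was *Epcam* (854 normalized counts per kb), *Spint2* (341), *Prom1* (186), *Clu* (172), *Spint1* (143), *St14* (104), *Muc1* (47.3), *Cftr* (27.9), *Aqp4* (15.01) and *Muc4* (2.96). Neighbours in this order overlapped between control pools only for *Prom1* with *Clu* and for *Cftr* with *Aqp4*. In mutant lungs the order was the same and no neighbours overlapped, with *Epcam* at 704, *Spint2* at 289.6, *Prom1* at 163, *Clu* at 107, *Spint1* at 93.6, *St14* at 76.2, *Muc1* at 32.0, *Cftr* at 21.2, *Aqp4* at 3.998 and *Muc4* at 1.01 normalized counts per kb. The pair at the bottom of the order had the largest log2 differences. On this scale *Epcam* was the leading transcript of the set in both genotypes, and *Muc4* the scarcest.

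**Figure D2:**
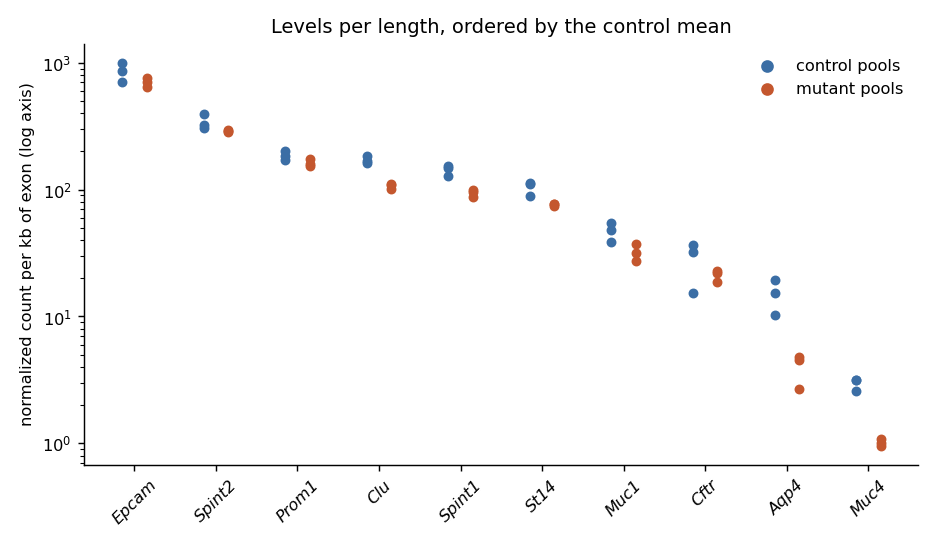
Normalized count per kb of exon (y axis, log scale) of the 10 genes, ordered by the control mean, with 1 point per pool (blue control, orange mutant, n = 3 each). The same order holds in both groups, from *Epcam* at 854 in control and 704 in mutant lungs to *Muc4* at 2.96 and 1.01.

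The control pools were less alike than the mutant pools. In all 10 genes the coefficient of variation was larger among control than among mutant pools, which was also so for 64.8% of the 13721 genes with a mean of at least 20. Control pool 2 was the highest control pool for 8 of the 10 genes and control pool 3 the lowest for 7. The same counts were not taken over all tested genes, so this order is not read as a trait of the 10 genes. Averaged over the 10 genes, the centred log2 values were 0.34, 0.51 and 0.14 for control pools 1, 2 and 3, against -0.26, -0.40 and -0.32 for the mutant pools. Over 17 epithelial reference genes that hold none of the 10, such as the lung factor *Nkx2-1*, the adhesion gene *Cdh1* and the keratin *Krt8*, the same measure was 0.23, 0.32 and 0.07 for the control pools, against -0.17, -0.30 and -0.15 for the mutant pools. Both profiles put the pools in the same order within the control group, with control pool 2 highest and control pool 3 lowest. The part of this common movement in the differences of the 10 genes was not tested.

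Of the 17 reference genes, 16 were lower in mutant than in control lungs, with a median log2 difference of -0.48 and a range of -0.97 to 0.44, and 6 passed the limma threshold, all lower. *Krt19* was the exception with 302 ± 28.8 and 409.6 ± 26.6 normalized counts (SD, n = 3 each). *Nkx2-1* had 2433 ± 329.5 and 2029 ± 45.7, and *Shh*, whose locus carries Cre in both groups, had 631 ± 12.2 and 617 ± 12.5. All 11 mesenchyme markers had a higher mean in mutant lungs, 3 of them past the limma threshold, with a summed level of 97219 to 103723 normalized counts in control and 117799 to 125575 in mutant pools. Endothelial markers were higher in 6 of 7 genes, without passing, with sums of 11674 to 13338 and 13489 to 14183. Mesothelial markers were higher in 5 of 6 genes, 1 of them past the threshold, and their sums did not overlap (7465 to 8160 in control and 8599 to 9172 in mutant pools), although their mean log2 values did. Cardiac markers were lower in 4 of 6 genes, without passing, with sums of 351 to 407 and 269 to 333 that did not overlap and mean log2 values that did. Neural, macrophage and erythroid markers overlapped on both measures. Only 2 of the 4 erythroid markers listed were tested, and *Hba-a1* and *Hba-a2* had means under 10 normalized counts. Markers of other foregut epithelia overlapped too, and *Foxn1*, *Pax8*, *Pdx1*, *Krt5* and *Cdx2* had means under 10 normalized counts. The part of the share of epithelium in the 10 genes' differences was not tested.

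**Figure D3:**
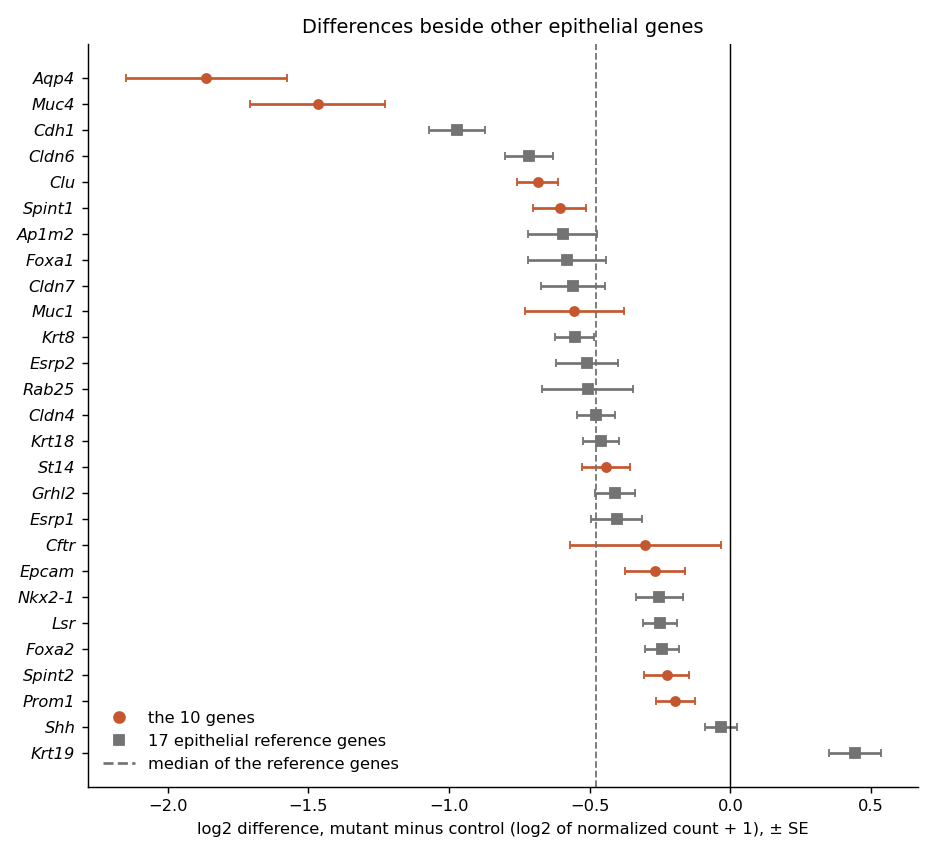
Log2 difference between mutant and control lungs (x axis, log2 of normalized count + 1, ± SE, n = 3 pools each) for the 10 genes (orange circles) and 17 epithelial reference genes (grey squares), with the median of the reference genes as a dashed line at -0.48. *Aqp4* and *Muc4* lie to the left of every reference gene, and the other 8 lie among them.

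With the 17 reference genes as the scale of each library (their mean log2 value set equal in all), all values of mutant pools were raised by 0.42 on the log2 scale relative to control pools, and the median of all tested genes became 0.41. Relative to these epithelial genes the set no longer moved in 1 direction: 6 genes were lower and 4 were higher. *Aqp4* (-1.45) and *Muc4* (-1.05) remained far lower, and *Clu* (-0.27) and *Spint1* (-0.19) were lower by less, each with no overlap between groups. *Muc1* (-0.14) and *St14* (-0.03) overlapped. *Cftr* (0.11), *Epcam* (0.15) and *Prom1* (0.22) were higher with overlap, and *Spint2* (0.19) was higher in every mutant pool than in every control pool. Under this scaling limma called 65.3% of all tested genes, 99.4% of the calls as higher, and 0.19 lies below the median of 0.41. The share of all tested genes without overlap under it was not computed, so nothing is read from these separations. The direction given above for *Cftr*, *Epcam*, *Prom1* and *Spint2* therefore flipped under this scaling. In the deposited values, 12 of the 17 reference genes had a larger fall than *Cftr* and than *Epcam*. For *Prom1* and *Spint2* the number was 15 each. The flip thus depends on which epithelial genes are taken as the scale. Only *Aqp4* and *Muc4*, of the 10 genes, had a larger difference than each of the 17 reference genes.

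**Figure D4:**
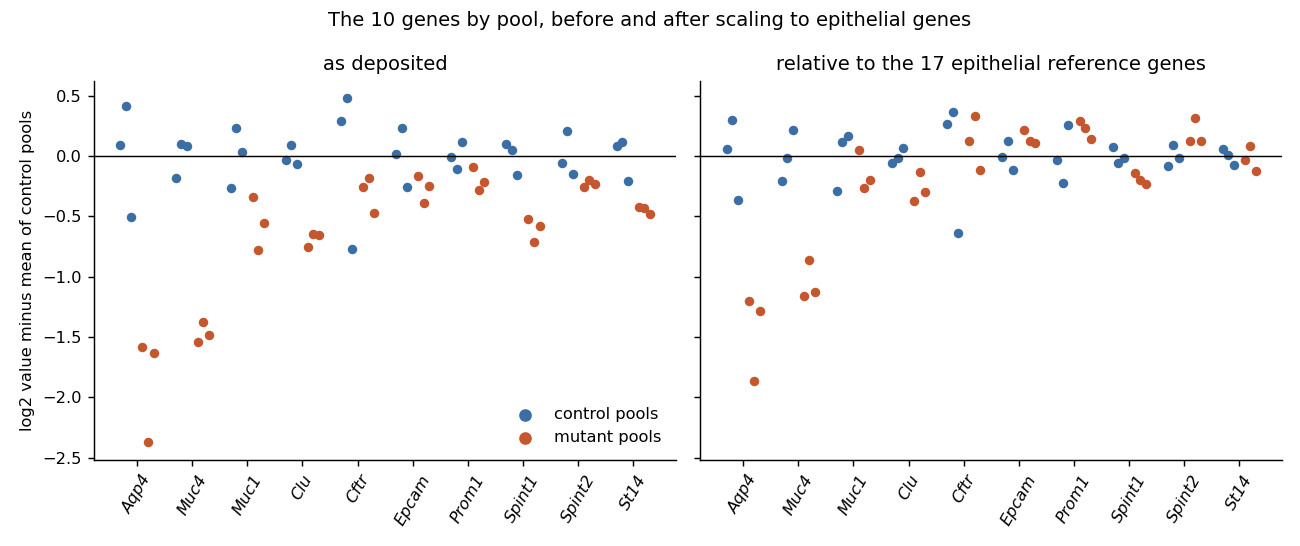
Log2 value of each pool minus the mean of the control pools (y axis) for the 10 genes, from the deposited values (left) and after scaling to 17 epithelial reference genes (right), with 1 point per pool (blue control, orange mutant). *Aqp4* and *Muc4* stay below the control pools in both panels, while *Cftr*, *Epcam*, *Prom1* and *Spint2* move from below to above the control mean.

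With *Epcam* alone as the yardstick within each pool, the log2 ratio to *Epcam* differed by -1.59 for *Aqp4*, -1.20 for *Muc4*, -0.42 for *Clu* and -0.34 for *Spint1* (mutant minus control), without overlap. For *Muc1* (-0.29), *St14* (-0.17), *Cftr* (-0.03), *Spint2* (0.04) and *Prom1* (0.07) the pools of both groups overlapped.

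Genes that work with the 10, but are none of them, were gathered in 9 lists of paralogs, partners and pathways, beside 2 lists of other epithelial genes. The 9 lists held 102 tested genes, of which 4 passed the limma threshold as lower (0.315% of all tested genes did) and 0 as higher (0.186%), which is 3.92% in all, and their median log2 difference was -0.02. The epithelial lists held 7 more genes past the threshold, again all lower, and the earlier look at these libraries had already shown some of these to be lower. Over all 11 lists, 11 of 133 tested genes (8.27%) were called and the median was -0.14. Without a filter on low values, without the variance trend, without control pool 1 or without mutant pool 3 the 11 calls became 0. Without control pool 3 there were 29, beside 2.75% of all tested genes called. edgeR on 5 libraries called 31, of which 27 were lower and 4 higher, beside 3.68% of the 14791 genes it tested. Scaled to the 17 reference genes, *Tmprss2*, *F2rl1*, *Prom2*, *Cdh1*, *Cldn6* and *Tjp3* kept their calls as lower. *Ano1* (-0.022), *Krt8* (-0.14), *Krt18* (-0.043), *Cldn4* (-0.063) and *Grhl2* (0.0056) lost theirs. *Cdh1*, *Cldn6*, *Krt8*, *Krt18*, *Cldn4* and *Grhl2* belong to the 17 genes that set this scale, so their outcome under it was partly fixed in advance. Each call named below is from limma with Benjamini-Hochberg adjustment over all 17168 genes.

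The list of surface serine proteases and their substrates held 15 tested genes, of which 10 had a lower mean in mutant lungs and 2 passed, both lower. *Tmprss2*, a transmembrane serine protease related to matriptase, had 413, 385 and 427 normalized counts in the controls, against 203, 113 and 156 in the mutants, a log2 difference of -1.41 (SE 0.18, limma adjusted p = 0.0128). All 3 mutant pools were far below the control pools. *F2rl1*, which encodes the protease-activated receptor PAR2, a target of matriptase signalling, fell from 160 ± 7.40 to 73.4 ± 19.5 (SD, n = 3 each; log2 difference -1.15, SE 0.19, limma adjusted p = 0.0398). *Prss8*, encoding prostasin, the protease most closely coupled to matriptase, had 588 ± 109.6 and 413 ± 32.6 normalized counts (log2 difference -0.49, limma adjusted p = 0.125) with no overlap. *Met*, the receptor of hepatocyte growth factor, whose activation HAI-1 restrains, had 339 ± 21.0 and 308 ± 30.5 with overlap (limma adjusted p = 0.544).

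Among 8 tested Kunitz inhibitors other than the pair above, 0 passed the limma threshold. At an unadjusted p under 0.05, which 13.6% of all tested genes reached, there was 1 lower and 1 higher, and edgeR called 0. The lowest p-values were those of *Tfpi*, the tissue factor pathway inhibitor, with 1133 ± 50.2 and 1285 ± 42.6 normalized counts (log2 difference 0.18, limma adjusted p = 0.172), and *Aplp2*, a relative of the amyloid precursor protein, with 4994 ± 73.8 and 4630.4 ± 66.8 (-0.11, limma adjusted p = 0.219). These differences had opposite directions. The median of the list was 0.13, and 6 of the 8 were higher in mutant lungs.

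In the list of *Aqp4* relatives and anchors, 0 of 12 tested genes passed in limma or edgeR, and 1 lower and 1 higher gene had an unadjusted p under 0.05 in limma. *Aqp5*, the apical water channel of alveolar type 1 cells and glands, was at 29.5, 55.8 and 11.9 normalized counts in control and 29.6, 27.5 and 36.3 in mutant pools, and the groups overlapped (log2 difference 0.18, SE 0.44, limma adjusted p = 0.898). *Aqp1*, the water channel of endothelium and red cells, had 265 ± 47.0 and 339 ± 3.07 (0.37, limma adjusted p = 0.215). *Dtna*, encoding alpha-dystrobrevin of the dystrophin complex that holds AQP4 at the membrane, had 316 ± 32.6 and 217 ± 50.6 (-0.56, limma adjusted p = 0.149). None of the other tested aquaporins passed the threshold. Apart from *Aqp1* they had low counts, with an SE of up to 0.57 (*Aqp7*), so not passing says little about them.

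Only 3 of 9 other mucins present in the table passed the filter. *Muc5ac*, *Muc5b*, *Muc15*, *Muc19*, *Muc20* and *Mucl1* were below it, and *Muc16* was not analysed here. Neither limma, even at an unadjusted p under 0.05, nor edgeR called any of the 3. *Muc2*, a secreted gel-forming mucin, had 10.3 ± 5.02 and 7.26 ± 4.80 normalized counts, and the membrane mucin *Muc13* had 3.97 ± 2.60 and 5.93 ± 2.53, both with overlap (limma adjusted p = 0.694 and 0.700). Of 15 tested enzymes that add or extend mucin-type sugars, 11 were higher and 4 lower in mutant lungs and 0 passed in limma or edgeR (3 higher and 1 lower at an unadjusted p under 0.05 in limma). *Galnt3*, which starts such chains, had 103 ± 16.2 and 71.7 ± 12.4 (limma adjusted p = 0.234), and *Galnt12*, of the same family, had 38.1 ± 7.25 and 55.3 ± 5.02 (limma adjusted p = 0.275).

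The apical scaffold and microvillus list had 1 called gene of 15. *Prom2*, the paralog of *Prom1*, had 68.8, 81.6 and 66.6 normalized counts in the controls, against 32.7, 32.4 and 39.3 in the mutants, with no overlap (log2 difference -1.04, SE 0.18, limma adjusted p = 0.0434). The difference was -0.20 for *Prom1* on the same scale, at a level of 1337 ± 107 normalized counts in control lungs against 72.3 ± 8.12 for *Prom2*. A test between these differences was not made. *Slc9a3r1*, encoding the scaffold NHERF1 that binds the tail of CFTR, had 1199 ± 28.7 and 1088 ± 21.5 (-0.14, limma adjusted p = 0.234), and none of its pools overlapped.

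Among 16 tested genes of epithelial ion and fluid transport, *Ano1*, the calcium-activated chloride channel of epithelia and smooth muscle, was the 1 that passed. It fell from 705, 727 and 767 normalized counts in the controls to 565, 497 and 561 in the mutants (log2 difference -0.44, SE 0.07, limma adjusted p = 0.0385). Another 10 of the 16 had a lower and 5 a higher mean in mutant lungs, without passing.

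Of 9 *Epcam* partners, 0 passed in limma, with 2 lower at an unadjusted p under 0.05, and edgeR called 1. *Cldn7*, the claudin that binds EPCAM directly, had 445 ± 69.9 and 300.2 ± 26.8 normalized counts (log2 difference -0.56, limma adjusted p = 0.0734), and the tetraspanin *Tspan8* had 72.8 ± 9.33 and 46.4 ± 1.54 (-0.63, limma adjusted p = 0.143), both without overlap. For clusterin, 0 of 9 receptors and related secreted chaperones passed in limma, with 2 lower and 3 higher at an unadjusted p under 0.05, and edgeR called 2, both higher. The chaperone-like protease inhibitor *A2m* had 319 ± 68.6 and 235 ± 24.6 (-0.42, limma adjusted p = 0.230), the receptor *Lrp8* had 261 ± 17.4 and 216 ± 13.6 (-0.27, limma adjusted p = 0.243), and the median of the list was 0.13.

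Of 17 epithelial transcription and splicing factors, 15 had a lower mean in mutant lungs and 1 passed: *Grhl2*, the Grainyhead-like regulator of junction and surface genes, at 485 ± 12.5 and 365 ± 19.0 normalized counts (log2 difference -0.41, SE 0.07, limma adjusted p = 0.0415). Relative to the 17 reference genes, to which it belongs, its difference was 0.0056. Among 14 junction, keratin and trafficking genes, 13 had a lower mean and 6 passed, all as lower. *Cdh1*, encoding E-cadherin, fell from 1439 ± 131 to 736 ± 97.7 (-0.97, SE 0.10, limma adjusted p = 0.00728), *Cldn6* from 3088 ± 333 to 1880 ± 180.2 (-0.71, limma adjusted p = 0.0119) and *Krt8* from 1333 ± 123 to 905 ± 31.2 (-0.55, limma adjusted p = 0.0128). *Krt18*, *Cldn4* and *Tjp3* were the other 3.

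**Figure D5:**
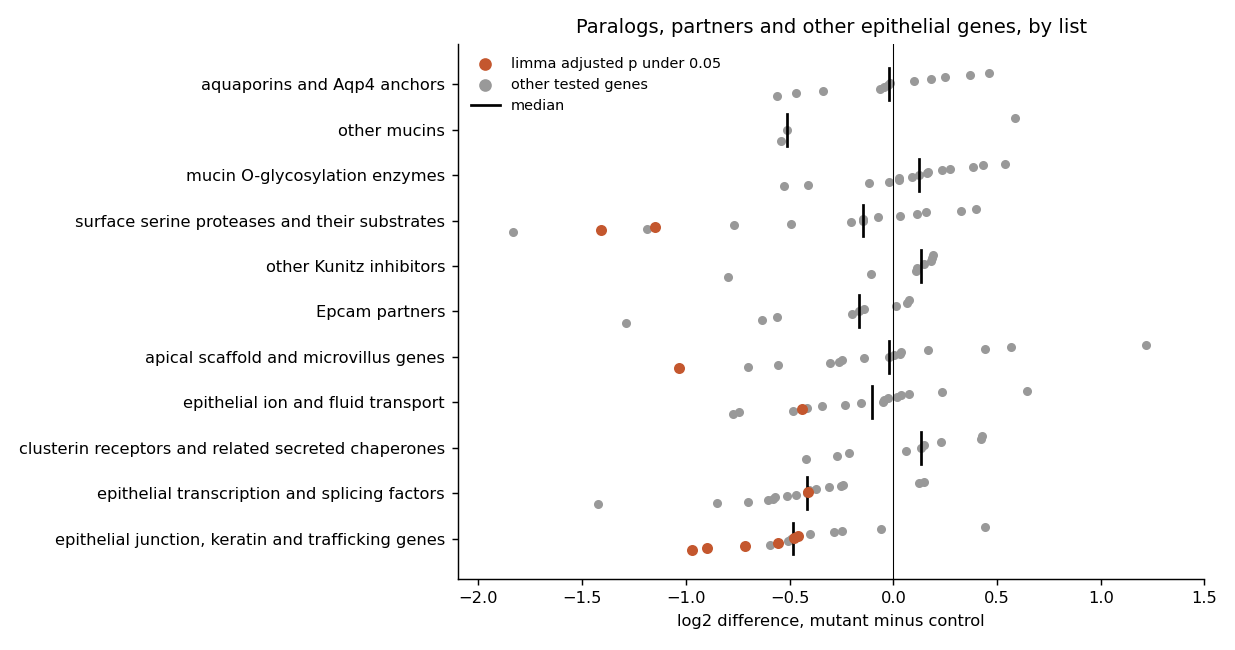
Log2 difference between mutant and control lungs (x axis) of every tested gene in 11 lists of paralogs, partners and other epithelial genes, with called genes (limma adjusted p under 0.05) in orange, others in grey and the median of each list as a bar. All 11 called genes are lower, and the medians of the 2 epithelial lists, at the bottom, lie furthest from 0 among lists of more than 3 tested genes.

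To see which genes outside the set had the most similar values, the centred log2 values of 12491 genes with a mean of at least 50 were compared over the 6 pools with the mean profile of the 10 genes. The nearest were *BC021891* (root mean square distance 0.05), *Fgfr4* (0.07), *Cldn6* (0.07), *Krt8* (0.07) and *Lin7a* (0.07). *Fgfr4*, a fibroblast growth factor receptor, had 249 ± 47.6 normalized counts in control and 154 ± 3.66 in mutant lungs, and *Lin7a*, a scaffold of the polarity machinery, had 567 ± 50.04 and 379 ± 40.2. Within the set, *Spint1* (0.07), *Clu* (0.10) and *St14* (0.13) lay nearest to the mean profile and *Aqp4* (0.66) farthest. The genes nearest to *Aqp4* were *Gpx2* (0.23), *Cckar* (0.31) and *P2rx2* (0.38).

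*Gpx2*, an epithelial glutathione peroxidase, had 169.9, 181 and 111 normalized counts in the controls, against 63.3, 27.5 and 69.7 in the mutants, so that control pool 3 and mutant pool 2 were the lowest of their groups, as for *Aqp4*. *Cckar*, a receptor of cholecystokinin, had 655, 829.6 and 422 in control and 318, 190.2 and 281 in mutant pools, with the same pools lowest. *P2rx2*, an ATP-gated ion channel, had 99.5 ± 18.7 and 45.5 ± 12.4 (SD, n = 3 each). These 3 genes, and the genes nearest to the mean profile above, were picked for their likeness over all 6 pools. That likeness includes the difference between the groups, so it is no separate evidence of a difference.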

How the data were processed

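Whole-lung RNA was sequenced from 6 pools at E11.5. The submitters' processing notes name Trim Galore, HISAT2, featureCounts, DESeq2 and the build mm10, and versions and the strandedness of counting are not given in the sources used here. The authors deposited 1 table whose signal values are normalized counts: reads per gene, scaled by a size factor for each library. Its columns of fold changes, standard errors, test statistics and p-values are the authors' own comparison and were not used, and its mean column was not used.

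Here limma 3.58.1 in R 4.3.3 (lmFit, eBayes with trend) was fitted to log2(normalized count + 1) for genes at 1 or more in at least 3 libraries, with no block, with Benjamini-Hochberg adjustment over all tested genes and a threshold of 0.05. The pseudocount shrinks the differences of low genes. In all 6 libraries 100% of values were whole multiples of 1 step (tolerance 0.01). For 5 libraries this gave 20197642 to 21276090 reads, and control pool 3 was not turned into reads because its step, 0.994, lay too near 1 for the rule used here. edgeR 4.0.16 (quasi-likelihood, TMM, filterByExpr) was run on those reads as an alternative, without control pool 3. Both tests were tested on simulated data. Depth sets the precision of low genes. The p-values weigh the difference between mutant and control against the spread between pools, and the spread between single lungs within a pool is not seen.

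The members and lists were chosen with earlier results of these data known. Named genes are the 10 genes, *Rptor*, up to 3 called genes of each list (the 2 lowest p-values where none passed), a fixed paralog or partner of 7 of the 10 genes (1 of these is not reported here), and the genes nearest in profile (5 for the set, 3 for *Aqp4*). Other called genes of the lists, *Krt19*, *Shh*, *Nkx2-1*, overlapping genes and markers were named after their values were seen. Same-numbered control and mutant pools had correlations of -0.03, 0.22 and 0.07 in their deviations from the group means over 12501 genes, and the numbers were not taken as pairs. Alternatives were upper-quartile scaling (75th percentile), scaling to 17 epithelial genes, no filter, values of at least 10 in every library, a pseudocount of 0.1, limma without the trend, a replicate block, edgeR and leaving out each pool. Coordinates and exon lengths are from GENCODE M21 (GRCm38).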

Additional observations from a re-analysis of the deposited data

How the results depend on the processing

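The directions of the 10 genes, which were chosen for this direction, held under 13 of 14 alternatives. Of 140 values, 131 stayed within 1 SD of the pools, but most of them had to. No filter, values of at least 10, no trend and the replicate block leave each log2 difference of these genes as it is. Leaving out 1 of 3 pools cannot move it by 1 SD. The count is therefore no evidence that the differences are stable. Under scaling to the 17 epithelial genes *Cftr* (0.11), *Epcam* (0.15), *Prom1* (0.22), *Spint2* (0.19) and the list gene *Grhl2* (0.0056) turned from lower to higher, and the median of the 10 genes was -0.082 in place of -0.50. That scaling raises all mutant values, and it gave 11205 calls over all genes (99.4% higher, against 37.2% of 86 calls), 54 in the lists and 2 of the 10 genes. Counts of calls depended strongly on the setting. Over all genes, in the lists and among the 10 genes they were 86, 11 and 4, and became 18, 0 and 0 without a filter (55.6% of the 18 higher) and 8, 0 and 1 without the trend (2 of the 8 higher). With edgeR on the 5 libraries other than control pool 3 they were 545 (3.68% of 14791 tested genes), 31 and 8, and the median of the 10 genes was -0.62. Leaving out 1 pool gave 1 to 468, 0 to 29 and 0 to 8 calls, and medians of -0.61 to -0.41. The call counts were 1, 0 and 0 without control pool 1, 147, 9 and 3 without control pool 2, 468, 29 and 8 without control pool 3, 12, 2 and 1 without mutant pool 1, 21, 3 and 1 without mutant pool 2, and 1, 0 and 0 without mutant pool 3. The replicate block gave 71, 9 and 4 calls and changed no direction, and the pools share only a number. The cause of these changes was not tested. Of 154 values of called list genes, 83 kept their direction and call. Low counts limit *Muc4* and *Aqp4* most.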
